A study of Capra hircus with 9 samples.

Results

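The 9 genes described here belong to the SLC26, SLC4 and SLC9 families, the bicarbonate-handling anion transporters and the sodium-proton exchangers of epithelia, and were followed in goat rumen epithelium. They were chosen by gene symbol, and 8 of the 18383 genes named in the expression files carry 1 of these symbols: SLC26A2, SLC26A3, SLC26A6, SLC4A4, SLC4A7, SLC9A2, SLC9A3 and SLC9A8. The ninth, SLC4A2, had no row under its symbol. A row with the gene ID that RefSeq's goat annotation of ARS1.2 gives to SLC4A2 (LOC106502068) was found, and its values are described beside the 8 but are not counted with them.

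The rumen epithelium absorbs the short-chain fatty acids that microbes make from feed. Anion exchangers of the SLC26 and SLC4 families can move bicarbonate against chloride or other anions, sodium-bicarbonate cotransporters bring bicarbonate into the cell, and SLC9 proteins export protons in exchange for sodium. In ruminant physiology these proteins are known for the handling of protons and bicarbonate that goes with acid uptake, and for sodium and chloride absorption.

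The series holds 9 RNA-seq libraries of rumen epithelium from goats (Capra hircus) aged 4 months, 3 for each of 3 concentrate feeding regimes that the labels name the HC, MC and LC diets. The labels do not spell out these letters, so they are used as given. Apart from the diet, the labels give all libraries the same tissue, age and RNA preparation. They do not say whether replicates are separate animals, so p-values measure the spread between these libraries, which may be technical. Levels are FPKM, a fragment count divided by the length of the transcript and by the depth of the library, and fold changes are differences of log2(FPKM + 1). The files give no read counts, so the depth behind each value is unknown. In bulk tissue, fewer cells of a type and less RNA per cell cannot be told apart.

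The files list 15123 to 16696 genes per library, and the 10 epithelial markers examined were listed in every library, with KRT5 at 2696 to 4803 FPKM and TP63 at 56.9 to 90.0 FPKM. Other cell types differed between libraries. The summed FPKM of 11 smooth muscle markers was 137.2 to 182.3 in HC, 1430 to 4410 in MC and 2986, 1617 and 71.3 in LC replicates 1, 2 and 3. The 7 listed macrophage markers (CD163 is not listed) summed to 31.1 to 37.8 FPKM in HC, 11.6 to 21.9 FPKM in MC and 42.2 to 53.8 FPKM in LC. Upper-layer epithelial markers summed to 1074 to 1643 FPKM in HC, 1859 to 2427 FPKM in MC and 1247 to 1938 FPKM in LC. Fibroblast markers summed to 204 to 372 FPKM in HC, 192 to 408 FPKM in MC and 306 to 733 FPKM in LC. The 6 T and NK cell markers summed to 12.6 to 17.4 FPKM in HC, 11.5 to 13.7 FPKM in MC and 14.8 to 15.9 FPKM in LC. Among them, the T cell marker CD3E was at 0.201 to 0.763 FPKM in HC, 0.209 to 0.831 FPKM in MC and 3.51 to 3.77 FPKM in LC. NKG7, of the same list, went the other way, with means of 11.8 FPKM in HC, 8.50 FPKM in MC and 2.91 FPKM in LC. It made up most of the sum in every HC and MC library. Of 5 markers of this list tested, HC against LC gave 1 higher and 4 lower, beside 7.79% higher and 17.4% lower among all genes tested. CD3D, CD3E and CD3G reached 1 FPKM in the 3 LC libraries alone. They entered the test through the diet where they are high, so their calls carry that limit. No red blood cell marker was listed.

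Among the exchangers, SLC26A3 and SLC9A3 had the highest levels, and 2 of the 9, SLC4A4 and SLC26A6, averaged under 1 FPKM. Mean FPKM over the 9 libraries was 204.4 for SLC26A3, 80.4 for SLC9A3, 47.7 for SLC9A2, 42.0 for SLC26A2, 19.5 for SLC4A2, 6.83 for SLC9A8, 1.43 for SLC4A7, 0.882 for SLC4A4 and 0.608 for SLC26A6. SLC26A3 exceeded SLC9A3 in 9 of 9 libraries, and SLC9A3 exceeded SLC9A2 in 9 of 9. SLC9A2 and SLC26A2 changed places: SLC9A2 was higher in 5 of 9 libraries, namely all 3 MC libraries, 2 HC libraries and no LC library. SLC26A2 over SLC4A2, SLC4A2 over SLC9A8 and SLC9A8 over SLC4A7 held in 9 of 9 libraries each. The first of these was nearly a tie in MC replicate 3, at 25.8 against 25.6 FPKM. SLC4A7 was above SLC4A4 in 8 of 9 libraries and SLC4A4 above SLC26A6 in 6 of 9, so the last pair is not separated beyond its spread.

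**Figure D1:**
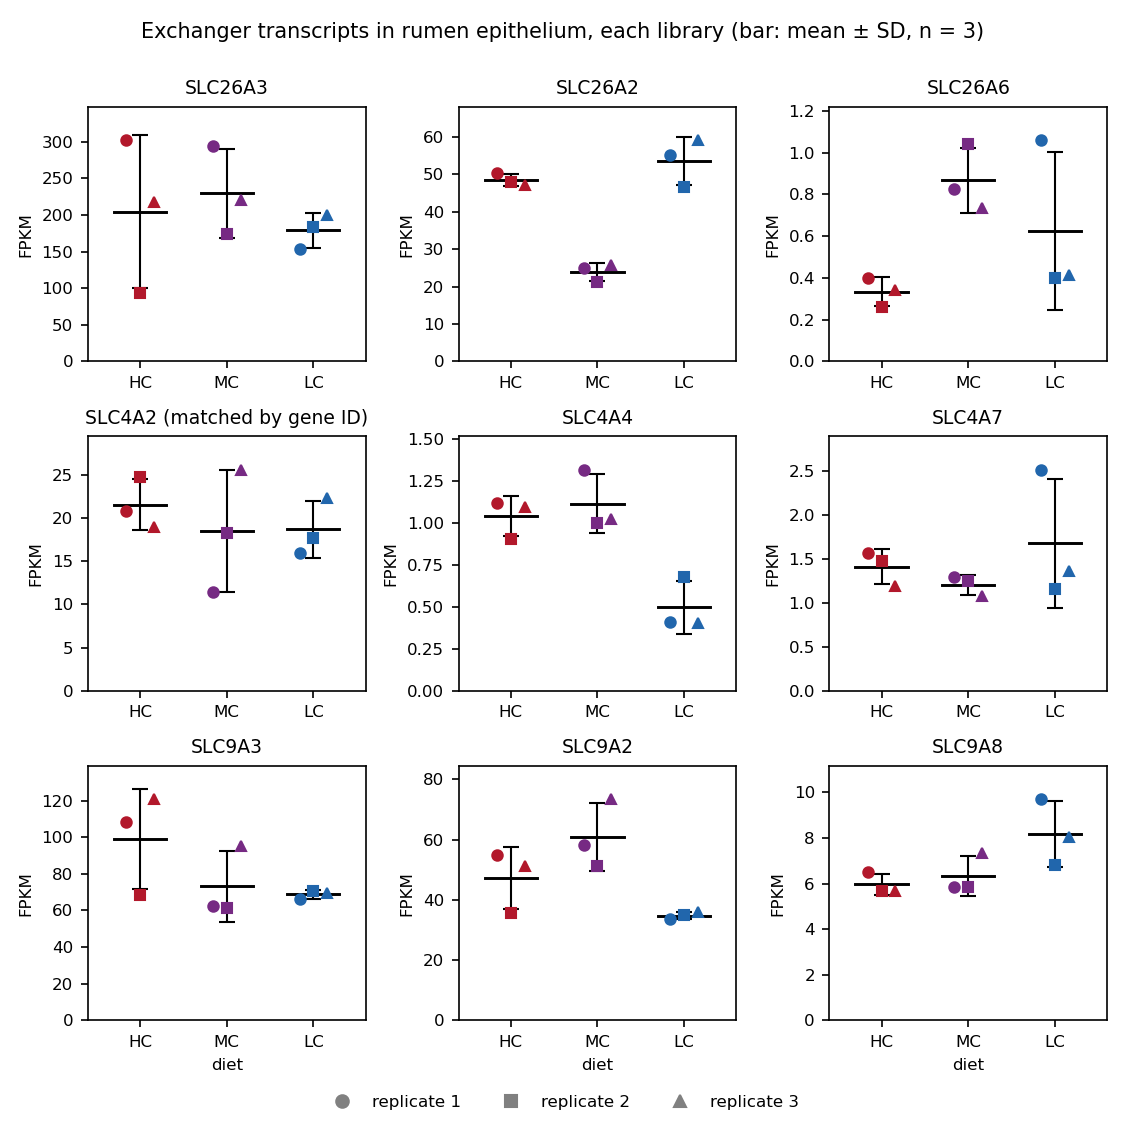
FPKM of each exchanger (y axis, linear from 0, a separate scale per gene) in the 3 libraries of the HC, MC and LC diets (x axis), with marker shape giving the replicate number and black bars the mean ± SD, n = 3. SLC26A2 is at 21.2 to 25.8 FPKM in the MC libraries and at 46.5 to 59.2 FPKM in all HC and LC libraries, and HC replicate 2 is the lowest HC library for SLC26A3, SLC9A3 and SLC9A2.

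Across the diets, 3 of the 7 exchangers listed by name and tested differed in limma's F test (Benjamini-Hochberg adjusted p under 0.05): SLC26A2, SLC4A4 and SLC9A2. The same F test called 45.2% of all 11668 genes tested, so a share of this size is near the background. Of the 7, MC against LC gave 2 higher (SLC9A2 and SLC4A4) and 1 lower (SLC26A2), beside a background of 33.4% of all genes (16.2% higher and 17.1% lower in MC). HC against LC gave 1 higher (SLC4A4) and none lower, beside 25.2% (7.79% higher and 17.4% lower in HC). SLC4A4 passed the filter on low values through HC and MC, the diets where it is high, so its calls in these counts carry that limit. HC against MC gave 1 higher (SLC26A2) and none lower, beside 25% (8% higher and 17% lower in HC). The share of higher genes among all those called depended on the scaling. In HC minus LC it was 30.9% as deposited, 53.1% under median-of-ratios scaling and 56.2% under quantile normalization, and in HC minus MC it was 32.0%, 53.5% and 54.5%, and 16.3% when each library was rescaled to one common sum. These contrasts share libraries: MC and HC are both set against the same LC libraries. The median log2 change of the 7 was 0.04 for HC minus LC, 0.06 for MC minus LC and -0.05 for HC minus MC, against -0.10, -0.01 and -0.10 for all genes tested. The libraries of the contrasted diets did not overlap for 2 of the 7 in HC against LC, 3 in MC against LC and 1 in HC against MC, beside 40.6%, 47.1% and 46.4% of all genes.

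**Figure D2:**
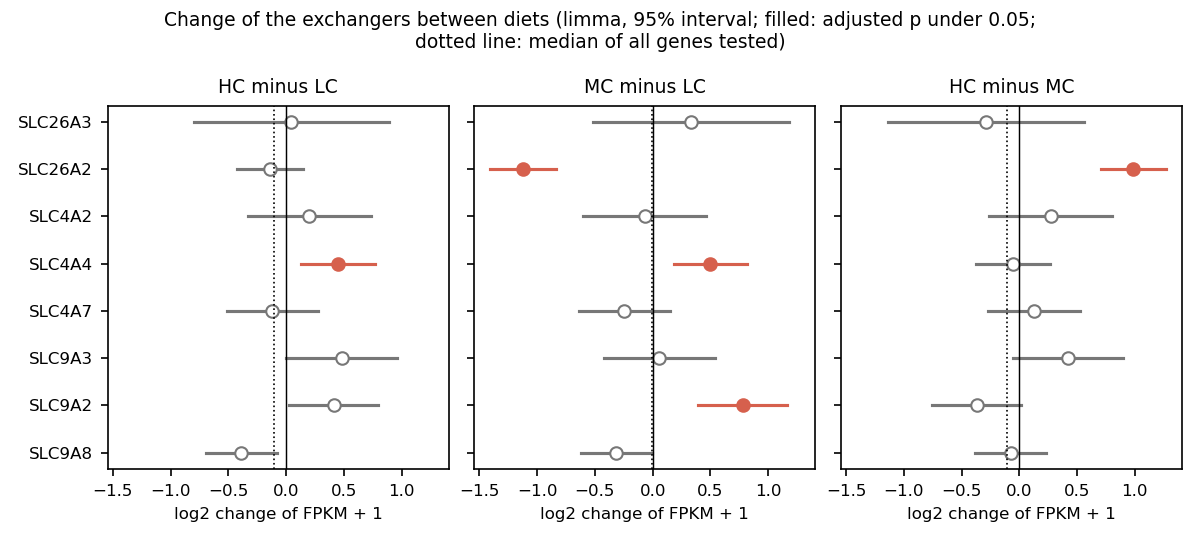
Change in log2(FPKM + 1) of 8 exchangers (rows) for HC minus LC, MC minus LC and HC minus MC, with 95% intervals from limma. Filled points passed an adjusted p of 0.05, and the dotted line is the median of all genes tested. SLC26A2 lies at -1.13 in MC minus LC and at 0.99 in HC minus MC, and the SLC26A3 intervals are the widest of the 8.

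SLC26A2, a sulfate transporter that exchanges sulfate for chloride and other anions, was lower under the MC diet than under either other diet. The gene spans 57530339 to 57552030 of chromosome 7. Its level was 50.3, 47.9 and 47.2 FPKM in HC replicates 1 to 3, 25.0, 21.2 and 25.8 FPKM in MC, and 55.3, 46.5 and 59.2 FPKM in LC. All MC libraries lay below all HC and LC libraries, and the HC and LC libraries overlapped. The means were 24.0 ± 2.42 FPKM in MC and 53.7 ± 6.48 FPKM in LC (SD, n = 3 each), a fall of log2 -1.13 ± 0.13 (SE, limma, Benjamini-Hochberg adjusted p = 8.17e-05). HC averaged 48.5 ± 1.58 FPKM, which was log2 0.99 ± 0.13 above MC (limma, adjusted p = 5.22e-04). HC and LC did not differ beyond the spread, with log2 -0.14 and a 95% interval of -0.42 to 0.15 (limma, adjusted p = 0.470). The MC change passed the test in all 22 alternative analyses, at log2 -1.27 to -1.04 for MC minus LC and 0.80 to 1.11 for HC minus MC. The smallest HC minus MC value came with the smooth muscle markers as a covariate, where the adjusted p was 0.0283. The macrophage sum and the upper-layer sum also separate MC from HC. The macrophage sum and the T and NK cell sum separate MC from LC, although NKG7 in the latter goes the other way. The part of these cell types and layers in the result was not tested. Upper-layer markers did not move as 1 group: of 10 tested, 3 were higher and 3 lower in HC against MC. Among all genes tested, 8% were higher and 17% lower in this contrast. ALOX12B, of this list, was at 0.20 to 0.35 FPKM in MC and entered the test through HC and LC, where it is high.

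SLC26A3, the chloride-bicarbonate exchanger that in the human intestine is lost in congenital chloride diarrhoea, was the most abundant of the exchangers and had the widest intervals of change. On chromosome 4 it occupies 46365886 to 46400632. The level was 302.3, 93.8 and 217.6 FPKM in HC replicates 1 to 3, 294.1, 174.2 and 220.1 FPKM in MC, and 153.7, 183.4 and 200.3 FPKM in LC. The 3 diets overlapped. Group means were 205 ± 105 FPKM in HC, 229 ± 60.5 FPKM in MC and 179 ± 23.6 FPKM in LC (SD, n = 3 each). No contrast passed limma's test, and the 95% intervals of -0.80 to 0.89 for HC minus LC and -0.51 to 1.18 for MC minus LC do not separate a rise from a fall. The HC minus LC value of log2 0.04 was 0.52 without HC replicate 2, with an adjusted p of 0.159.

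SLC26A6, an anion exchanger that takes chloride, bicarbonate and oxalate, was close to the lower end of measurement. It lies on chromosome 22 at 51010621 to 51022601. The level was 0.401, 0.261 and 0.341 FPKM in HC, 0.823, 1.04 and 0.736 FPKM in MC, and 1.06, 0.398 and 0.413 FPKM in LC. All HC libraries lay below all MC libraries, and LC replicate 1 stood apart from the other two LC libraries. The gene reached 1 FPKM in 2 libraries, under the 3 required, so it was not tested with the others. Without the filter on low values, HC minus MC was log2 -0.48 ± 0.15 (limma, adjusted p = 0.0415), and the other contrasts did not pass.

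Within the SLC26 family, SLC26A3 supplied 76.4% ± 10.9 of the summed FPKM in HC, 87.8% ± 2.30 in MC and 74.6% ± 3.27 in LC (SD, n = 3 each). SLC26A2 supplied 21.4% ± 9.95 in HC, 9.45% ± 1.54 in MC and 22.5% ± 2.96 in LC. The family sum was 258 ± 106 FPKM in HC, 260 ± 61.7 FPKM in MC and 240 ± 24.7 FPKM in LC. Outside the 3 genes above, 1 SLC26 gene exceeded 1 FPKM: SLC26A11, at 3.85 FPKM in HC, 4.87 FPKM in MC and 5.08 FPKM in LC. SLC26A1, SLC26A7, SLC26A8, SLC26A9 and SLC26A10 were below 1 FPKM wherever they were listed, and SLC26A4 and SLC26A5 were not listed. Genes not listed in a library count as 0 in these sums.

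SLC4A4, an electrogenic sodium-bicarbonate cotransporter, was higher in HC and in MC than in LC, at low levels. The gene spans 83718168 to 84039409 of chromosome 6. The level was 1.116, 0.900 and 1.09 FPKM in HC, 1.32, 1.00 and 1.02 FPKM in MC, and 0.407, 0.676 and 0.405 FPKM in LC. No HC or MC library overlapped the LC libraries, while HC and MC overlapped. The means of 1.04 ± 0.119 FPKM in HC and 1.11 ± 0.175 FPKM in MC are 2.09 and 2.24 times the 0.496 ± 0.156 FPKM of LC (SD, n = 3 each). On the log2(FPKM + 1) scale, which understates changes at such levels, HC minus LC was 0.45 ± 0.15 (SE, limma, Benjamini-Hochberg adjusted p = 0.0425) and MC minus LC 0.50 ± 0.15 (adjusted p = 0.0210). The gene passed the filter on low values through its HC and MC libraries, and no LC library reached 1 FPKM. Leaving out any 1 of the 9 libraries ended the HC minus LC call, with adjusted p of 0.0531 to 0.130 (limma). The MC minus LC call ended without MC replicate 1 (adjusted p = 0.0862) or LC replicate 3 (adjusted p = 0.0694), and it was also lost with LC replicate 3 as the sole LC library (adjusted p = 0.0592) or with the smooth muscle covariate (adjusted p = 0.0503). The macrophage sum and the T cell markers CD3D, CD3E and CD3G also separate HC and MC from LC, all being lower in HC and MC. NKG7, of the same T and NK cell list, separates them the other way, being higher in HC and MC. The part of these cell types in the result was not tested.

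SLC4A7, an electroneutral sodium-bicarbonate cotransporter, was at 1.57, 1.47 and 1.19 FPKM in HC, 1.29, 1.25 and 1.07 FPKM in MC, and 2.51, 1.155 and 1.36 FPKM in LC. On chromosome 22 it occupies 1665905 to 1738116. LC replicate 1 was above every other library, and the other LC libraries lay among those of HC and MC. No contrast passed the test, with a 95% interval of -0.52 to 0.28 for HC minus LC and of -0.64 to 0.15 for MC minus LC.

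The row matched to SLC4A2, a chloride-bicarbonate exchanger that epithelia commonly carry on the basolateral side, was at 20.8, 24.7 and 19.0 FPKM in HC, 11.5, 18.3 and 25.6 FPKM in MC, and 15.96, 17.7 and 22.3 FPKM in LC. It lies on chromosome 4 at 109642990 to 109655983 and overlaps another listed gene, LOC102186459, so its values are uncertain. The diets overlapped and no contrast passed limma's test, with 95% intervals of -0.33 to 0.73 for HC minus LC and -0.60 to 0.46 for MC minus LC. With its values counted, SLC4A2 supplied 60.1% of the summed SLC4 FPKM in HC, 52.3% in MC and 53.6% in LC. SLC4A9, another SLC4 family gene, supplied 32.2% in HC, 39.1% in MC and 38.7% in LC, at 11.5 ± 0.594 FPKM in HC, 13.1 ± 0.704 FPKM in MC and 13.4 ± 0.544 FPKM in LC. SLC4A4 supplied 2.94% in HC, 3.42% in MC and 1.45% in LC. SLC4A3, SLC4A5, SLC4A8, SLC4A10 and SLC4A11 were below 1 FPKM wherever listed, and SLC4A1 was not listed.

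SLC9A2, a sodium-proton exchanger of the apical membrane in several mammalian epithelia, was higher in MC than in LC. It lies on chromosome 11 at 7217328 to 7279675. The level was 54.8, 35.7 and 51.4 FPKM in HC, 58.2, 51.3 and 73.4 FPKM in MC, and 33.6, 34.9 and 35.8 FPKM in LC. All MC libraries lay above all LC libraries, whereas HC overlapped both, with HC replicate 2 inside the LC range. Means were 61.0 ± 11.3 FPKM in MC and 34.8 ± 1.098 FPKM in LC (SD, n = 3 each), a rise of log2 0.78 ± 0.18 (limma, Benjamini-Hochberg adjusted p = 0.00563). This contrast passed in 21 of 22 alternatives and was lost with LC replicate 3 as the sole LC library (log2 0.74, adjusted p = 0.0759). The sums of macrophage and of T and NK cell markers separate MC from LC as well, both being lower in MC. The second sum joins markers that moved in opposite directions, since NKG7 was higher in MC. The part of these cell types was not tested. HC averaged 47.3 ± 10.2 FPKM and was log2 0.41 ± 0.18 above LC, which did not pass (limma, adjusted p = 0.109). Without HC replicate 2 it passed, at log2 0.60 ± 0.16 (limma, adjusted p = 0.0290). With all libraries it also passed under median-of-ratios scaling (adjusted p = 0.0395) and with array quality weights (adjusted p = 0.00213). In 18 of 22 alternatives HC minus LC did not pass. Leaving out 1 library gave log2 0.29 to 0.60 (limma, adjusted p of 0.0290 to 0.294). The neighbouring family gene SLC9A4, which lies 66308 bases from SLC9A2, was at 0.291 to 0.673 FPKM in all libraries.

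SLC9A3, the apical sodium-proton exchanger of intestine and kidney, was the most abundant SLC9 gene. The gene spans 70412895 to 70451671 of chromosome 20. The level was 108.2, 68.6 and 120.8 FPKM in HC, 62.7, 61.5 and 95.4 FPKM in MC, and 66.3, 70.9 and 69.4 FPKM in LC. HC replicates 1 and 3 lay above every other library, and HC replicate 2 lay within the LC range. Means were 99.2 ± 27.2 FPKM in HC, 73.2 ± 19.2 FPKM in MC and 68.9 ± 2.35 FPKM in LC (SD, n = 3 each). No contrast passed the test: HC minus LC was log2 0.48 ± 0.22 (limma, adjusted p = 0.128). It passed in 2 of 22 alternatives, and leaving out 1 library gave log2 0.32 to 0.72 (limma, adjusted p of 0.0281 to 0.385). Without HC replicate 2, HC minus LC was 0.72 ± 0.20 (limma, adjusted p = 0.0281) and HC minus MC 0.67 (adjusted p = 0.0436), and with array quality weights on all libraries they were 0.71 and 0.79 (limma, adjusted p = 0.00291 and 0.00150).

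SLC9A8, a sodium-proton exchanger found on the apical membrane and on intracellular compartments, was at 6.51, 5.69 and 5.68 FPKM in HC, 5.83, 5.84 and 7.35 FPKM in MC, and 9.70, 6.80 and 8.03 FPKM in LC. It lies on chromosome 13 at 76005081 to 76074373 and overlaps LOC102190432, so its values are uncertain. All HC libraries lay below all LC libraries, and MC overlapped both. HC minus LC was log2 -0.39 ± 0.14, which did not pass the threshold (limma, adjusted p = 0.0627). It passed without LC replicate 2, at log2 -0.50 (limma, adjusted p = 0.0386), and with array quality weights on all libraries, at log2 -0.30 (adjusted p = 0.0145). In 19 of 22 alternatives it did not pass. Leaving out 1 library gave log2 -0.50 to -0.27 (limma, adjusted p of 0.0386 to 0.175).

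The make-up of the SLC9 family differed between MC and the other diets. SLC9A2 supplied 29.6% ± 1.64 of the summed SLC9 FPKM in HC, 40.3% ± 1.41 in MC and 28.1% ± 0.792 in LC (SD, n = 3 each). SLC9A3 supplied 61.3% ± 3.58 in HC, 47.9% ± 2.94 in MC and 55.6% ± 1.80 in LC. The family sum was 161 ± 36.9 FPKM in HC, 152 ± 31.1 FPKM in MC and 124 ± 0.429 FPKM in LC. These shares are a description and were not tested.

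**Figure D3:**
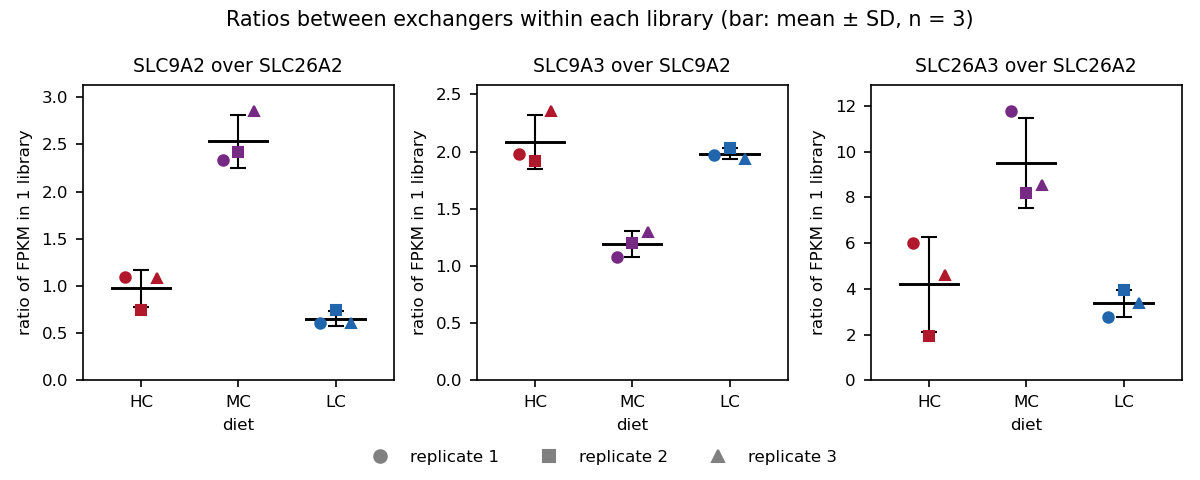
Ratio of the FPKM of paired exchangers within each library (y axis, linear from 0) by diet (x axis), with marker shape giving the replicate number and black bars the mean ± SD, n = 3. SLC9A2 over SLC26A2 is 2.33 to 2.85 in MC libraries and 0.605 to 1.09 in all HC and LC libraries.

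Ratios within a library do not depend on a scaling that multiplies each library by 1 factor, but quantile normalization can change them. They were chosen after the values were seen and carry no test. SLC9A2 over SLC26A2 was 1.09, 0.744 and 1.09 in HC, 2.33, 2.42 and 2.85 in MC, and 0.608, 0.749 and 0.605 in LC, so MC stood above both other diets without overlap. SLC9A3 over SLC9A2 was 1.97, 1.92 and 2.35 in HC, 1.076, 1.199 and 1.299 in MC, and 1.97, 2.03 and 1.94 in LC, with MC below both. SLC26A3 over SLC26A2 was 6.02, 1.96 and 4.61 in HC, 11.8, 8.20 and 8.54 in MC, and 2.78, 3.94 and 3.39 in LC, again with MC apart. This ratio shares SLC26A2, itself lower in MC, with SLC9A2 over SLC26A2, and no SLC26A3 contrast passed the test. It is thus not a separate result. SLC9A3 over SLC26A3 overlapped across the diets.

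HC replicate 2 was low for part of the exchangers. Its level was 0.361 of the mean of the other HC libraries for SLC26A3, 0.599 for SLC9A3 and 0.672 for SLC9A2, but 0.984 for SLC26A2 and 1.07 for SLC4A7. It was the lowest HC library for 5 of the 9 exchangers. In the same library, 6 of 11 listed upper-layer markers were the lowest of HC, with SPINK5, a protease inhibitor of upper layers, at 0.499 of the other HC libraries and the envelope protein IVL at 0.636, while CDSN at 1.44, EVPL at 1.23 and PPL at 1.16 went the other way. Of 7 listed basal-layer markers, 0 were lowest in it. ITGB4 was at 1.56, COL17A1 at 1.38, KRT5 at 1.37 and TP63 at 1.11, while KRT14 and ITGA6 were at 1.01 and ITGB1 at 0.960. The share of all genes that were lowest in this library was not counted. The part of layer composition in the exchanger values was not tested.

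Over the 9 libraries, SLC26A2 ran opposite to SLC9A2 (Pearson r of log2(FPKM + 1) = -0.70) and SLC4A4 ran with SLC9A2 (r = 0.78) and opposite to SLC9A8 (r = -0.81). SLC26A3 and SLC9A2 had r = 0.63, SLC26A3 and SLC9A3 r = 0.40, and SLC9A2 and SLC9A3 r = 0.46. The 9 points share the diets and the library scaling. The genes named next were picked for the highest r of all candidates. A high r thus comes partly from the search, and none was tested. Among 4322 genes with a mean of at least 10 FPKM, SLC26A2 was most like CDKN1B (r = 0.98), a cyclin-dependent kinase inhibitor, and SAP30L (r = 0.97). CDKN1B averaged 32.4 FPKM in HC, 22.6 FPKM in MC and 35.4 FPKM in LC. SLC9A2 was most like MFGE8 (r = 0.96) and the aquaporin AQP3 (r = 0.95), which averaged 142 FPKM in HC, 183 FPKM in MC and 92.9 FPKM in LC. SLC26A3 was most like EPCAM (r = 0.94) and TMEM165 (r = 0.92), SLC4A4 like CKS2 (r = 0.99) and UPP1 (r = 0.95), and SLC9A3 like OTUB2 (r = 0.91) and IL1RN (r = 0.87).

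Several other SLC9 family genes were low. SLC9A4, SLC9A5, SLC9A7, SLC9B1, SLC9B2 and SLC9C2 were below 1 FPKM wherever listed, SLC9A9 reached 1.00 FPKM in LC replicate 1 alone, and SLC9C1 was not listed.

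The shares of all genes called, 25.2% for HC against LC, 33.4% for MC against LC and 25% for HC against MC, are the background for the gene lists that follow, and no list was tested for enrichment. The first list holds genes known to bind or regulate the exchangers. Of 15 tested among 22 listed, HC against LC gave 6 higher and 1 lower (median log2 0.25), MC against LC 5 higher and 2 lower (median 0.30), and HC against MC 2 higher and 0 lower (median -0.09, a share of called genes below the background). CHP2, a calcineurin-like protein that binds sodium-proton exchangers, was at 121, 129 and 121 FPKM in HC, 47.6, 48.8 and 54.9 FPKM in MC, and 92.5, 106 and 116 FPKM in LC. All MC libraries lay below the others, as for SLC26A2. CHP2 fell by 1.04 on the log2 scale in MC against LC (limma, adjusted p = 1.61e-04), and HC was log2 1.28 ± 0.13 above MC (adjusted p = 1.30e-04). AHCYL1, which binds and activates sodium-bicarbonate cotransporters, rose to 35.7 ± 2.66 FPKM in MC, against 23.8 ± 1.77 FPKM in LC (limma, adjusted p = 0.00288). Its HC mean was 31.0 ± 0.573 FPKM. SGK1, a kinase that acts on SLC9A3, rose to 33.1 ± 2.62 FPKM in HC, against 23.2 ± 1.07 FPKM in LC (limma, adjusted p = 0.00862). Its MC mean was 29.3 ± 1.27 FPKM. STK39, a kinase of the WNK pathway that overlaps another listed gene, fell to 0.443 ± 0.122 FPKM in HC, against 1.88 ± 0.602 FPKM in LC (limma, adjusted p = 0.00250). It reached 1 FPKM in the 3 LC libraries alone and so passed the filter through the diet where it is high. STK39 is among the lower genes counted above in HC against LC and in MC against LC, so those counts carry that limit. WNK4 rose to 31.9 ± 5.70 FPKM in HC, against 18.6 ± 2.33 FPKM in MC (limma, adjusted p = 0.00512). Its LC mean was 21.8 ± 2.34 FPKM.

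Carbonic anhydrases make bicarbonate and protons from carbon dioxide and water. Of 5 tested among 10 listed, HC against LC and MC against LC each gave 1 higher and 1 lower (medians log2 0.14 and 0.14), and HC against MC gave 1 higher and 0 lower (median 0.22). With 5 genes tested, 1 or 2 calls are near the background. CA12, a membrane enzyme facing outwards, was at 509 ± 60.9 FPKM in HC, 352 ± 48.5 FPKM in MC and 216 ± 29.0 FPKM in LC (SD, n = 3 each). It rose by log2 1.23 ± 0.17 in HC against LC (limma, adjusted p = 4.37e-04) and by 0.70 in MC against LC (adjusted p = 0.00814). HC minus MC was 0.53 (adjusted p = 0.0397) and was lost without any 1 of HC replicates 2 or 3, MC replicates 1 or 2, or LC replicate 2 (adjusted p of 0.0515 to 0.150). CA13, a cytosolic enzyme, fell to 5.85 ± 0.240 FPKM in HC and 5.51 ± 1.02 FPKM in MC, against 10.4 ± 2.06 FPKM in LC (limma, adjusted p = 0.00498 and 0.00172).

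A further list holds transporters and channels for short-chain fatty acids, lactate and chloride. Of 9 tested among 19 listed, HC against LC gave 4 higher and 1 lower (median log2 0.36), MC against LC 4 higher and 0 lower (median 0.52), and HC against MC 1 higher and 3 lower (median 0.30), so 4, 5 and 5 of the 9 did not pass. The monocarboxylate transporter SLC16A1 rose to 413 ± 23.2 FPKM in HC, against 182 ± 35.3 FPKM in LC (log2 1.197, limma, adjusted p = 4.55e-04). Its MC mean was 297 ± 25.2 FPKM. The chloride channel CLCN2, which overlaps FAM131A, was at 23.2 ± 3.05 FPKM in HC, 36.0 ± 5.61 FPKM in MC and 14.5 ± 1.79 FPKM in LC, with adjusted p of 0.00888 for HC minus LC and 9.37e-05 for MC minus LC (limma). For HC minus MC it was log2 -0.61 (limma, adjusted p = 0.0124), which was lost without HC replicate 2 (adjusted p = 0.0531). LRRC8A and LRRC8E, subunits of the volume-regulated anion channel, stood at 17.7 ± 2.37 FPKM in MC against 11.0 ± 0.241 FPKM in LC for LRRC8A (limma, adjusted p = 0.00207) and at 9.32 ± 0.465 FPKM in HC against 14.4 ± 2.505 FPKM in MC for LRRC8E (adjusted p = 0.0110).

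The sodium pump keeps the sodium gradient that SLC9 exchangers and sodium-bicarbonate cotransporters use. Of 7 tested among 11 listed, HC against LC gave 1 higher and 2 lower (median log2 -0.22), MC against LC 1 higher and 3 lower (median -0.32), and HC against MC 1 higher and 0 lower (median -0.11), the last a share below the background. The pump modulator FXYD3 fell to 933 ± 152 FPKM in HC and 829 ± 16.2 FPKM in MC, against 1628 ± 255 FPKM in LC (limma, adjusted p = 0.00767 and 0.00192). The beta subunit ATP1B1, which overlaps NME7, was at 18.7 ± 0.981 FPKM in HC, 7.39 ± 0.704 FPKM in MC and 13.4 ± 1.09 FPKM in LC, without overlap between the diets. Its adjusted p was 6.46e-05 for HC minus MC, 3.77e-04 for MC minus LC and 0.0145 for HC minus LC (limma), the last lost without LC replicate 2 (adjusted p = 0.0616).

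The vacuolar proton pump is another route for protons out of the cytosol. Of 19 tested subunit genes and relatives among 25 listed, HC against LC gave 3 higher and 1 lower, MC against LC 5 higher and 2 lower, and HC against MC 2 higher and 3 lower, with medians of log2 -0.07, 0.11 and -0.11. These counts are near the background in each contrast. ATP6V1C2, which overlaps PDIA6, was at 52.4 ± 13.4 FPKM in HC, 23.4 ± 0.293 FPKM in MC and 20.04 ± 0.515 FPKM in LC, with adjusted p of 2.54e-04 for HC minus LC and 0.00104 for HC minus MC (limma). ATP6V0D1, which overlaps another listed gene, rose to 131 ± 14.2 FPKM in HC, against 86.6 ± 7.56 FPKM in LC (limma, adjusted p = 0.0114), and was lost without HC replicate 3 (adjusted p = 0.0622). Its MC mean was 118 ± 10.3 FPKM. ATP6V1A rose to 72.0 ± 9.74 FPKM in MC, against 43.8 ± 4.38 FPKM in LC (adjusted p = 0.00359, limma), and ATP6V1B1 fell to 234 ± 39.8 FPKM in MC, against 380 ± 23.0 FPKM in LC (adjusted p = 0.00821). In HC, ATP6V1A averaged 66.6 ± 7.19 FPKM and ATP6V1B1 352 ± 53.4 FPKM. TCIRG1, which overlaps NDUFS8, was at 6.83 ± 0.437 FPKM in HC, against 9.96 ± 0.625 FPKM in MC (limma, adjusted p = 0.00794).

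**Figure D4:**
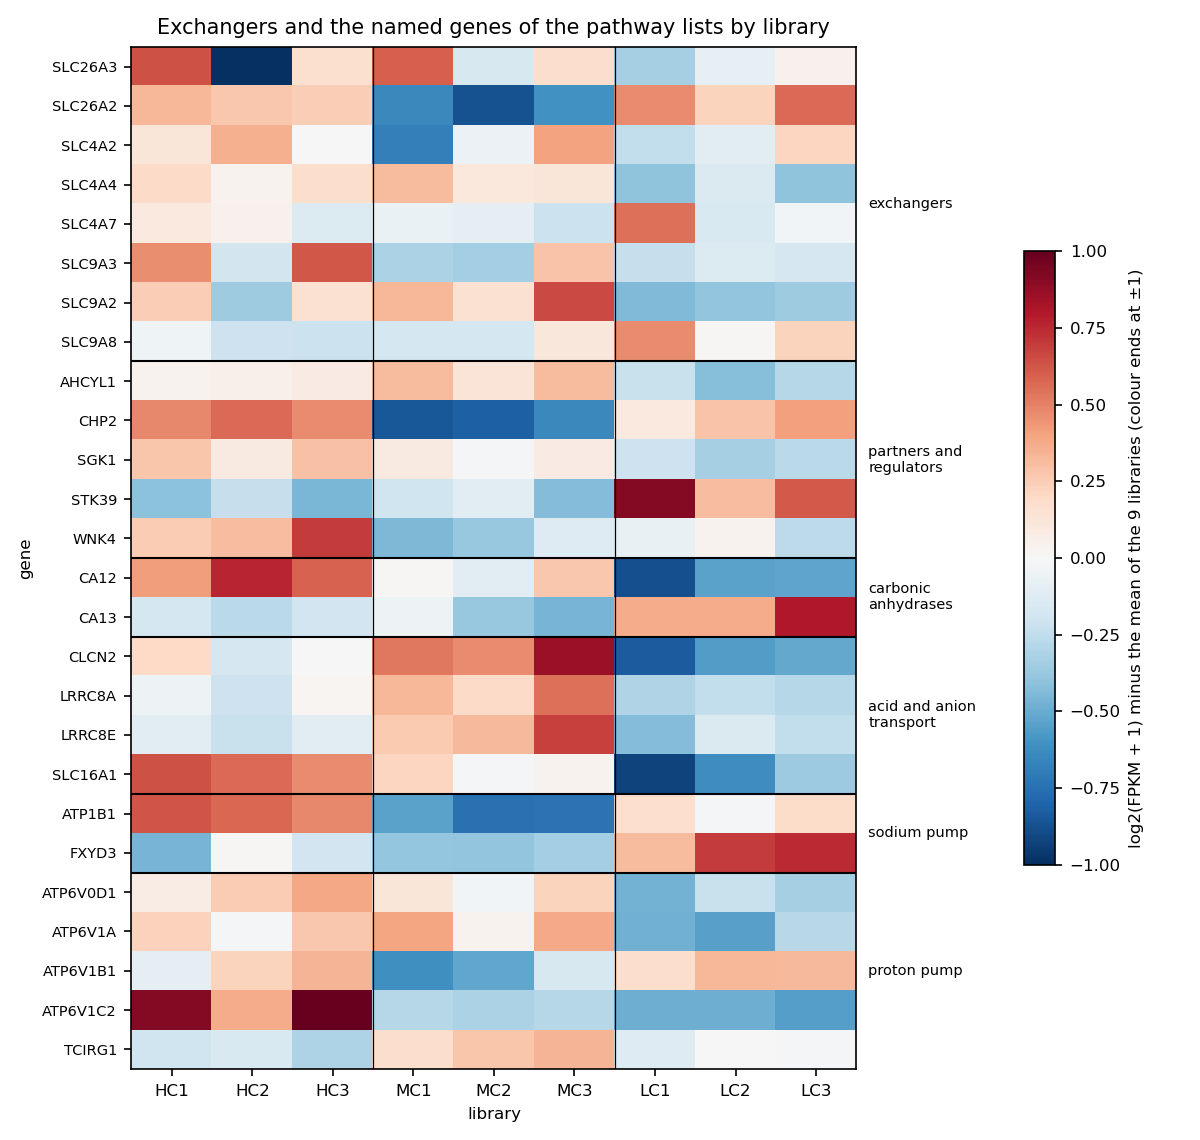
Level of the exchangers and of the named genes of each pathway list (rows) in the 9 libraries (columns, HC then MC then LC), as log2(FPKM + 1) minus the mean of the 9 libraries, with red above and blue below the mean and the colour ending at ±1. SLC26A2, CHP2 and ATP1B1 are blue in all 3 MC libraries, while CA12 and SLC16A1 are blue in all 3 LC libraries.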

How the data were processed

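RNA of goat rumen epithelium was sequenced from TruSeq libraries of 9 samples in 3 diets. The authors' deposited files hold 1 FPKM value per gene and library, and the submitters' processing notes name Bowtie 1.2.0 and Cufflinks 2.2.1. The unit is not written in any label and was inferred from Cufflinks and from the values themselves. Build, annotation and strand setting were not given in the sources used here. Positions were copied unchanged from the files. Each genome sequence was given the chromosome number that most of its named genes have in RefSeq's ARS1.2 annotation. In each file 2 repeated lines were summed, and 18 to 21 lines with names turned into dates in the MC and LC files (0 in HC) were left out. Overlapping genes can share fragments, which makes their values uncertain.

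Genes needed 1 FPKM or more in 3 or more libraries (11879 genes) and a value in every library, which left 11668, tested on log2(FPKM + 1) with limma 3.58.1 in R 4.3.3: 1 mean per diet over all 9 libraries, trend and robust moderation, two-sided, Benjamini-Hochberg adjustment over all genes per contrast, threshold 0.05. The script was tested on simulated data. Members and lists were chosen with earlier results of these data known. Named are all 9 exchangers, other family genes (some are not reported here), the 2 called genes of lowest adjusted p in each list and contrast, and the 2 genes most correlated with each of 5 exchangers. KRT5, TP63, ITGB4, COL17A1, KRT14, ITGA6, ITGB1, SPINK5, IVL, CDSN, EVPL, PPL, ALOX12B, CD3D, CD3E, CD3G and NKG7 were named after their values were seen. Alternatives were another pseudocount, filters, scalings, moderation, weights, a replicate block, pairs of diets alone, a threshold of 0.01 and leaving out each library. The smooth muscle covariate and LC replicate 3 as sole LC library were added after the data were seen.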

Additional observations from a re-analysis of the deposited data

How the results depend on the processing

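Of 527 recomputed log2 changes of the exchangers, 466 kept their direction and their side of the threshold, 20 lost the threshold, 11 gained it and 30 changed sign; none of the contrasts that changed sign had passed the test. The count of exchangers past the test in HC against LC (1 as reported) was 0 with unlisted genes set to 0, 0 when libraries were rescaled to one sum, 0 with only the compared diets (where SLC4A4 is filtered out), 0 at a threshold of 0.01, 0 with the smooth muscle covariate, 0 with LC replicate 3 alone, 2 under median-of-ratios scaling, 4 with array quality weights and 0 to 2 leaving out 1 library. In MC against LC (3) it was 1 with LC replicate 3 alone and 2 to 3 leaving out 1 library. In HC against MC (1) it was 2 with no filter on low values, 2 with quality weights and 1 to 2 leaving out 1 library. For the F test (3) it was 5 with quality weights, 1 at a threshold of 0.01, 1 with LC replicate 3 alone and 2 to 4 leaving out 1 library.

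The labels state no pairing by replicate number, and 6 of 9 correlations between same-numbered libraries exceeded 0.1, within -0.08 to 0.50. Since not all did, and not every library correlated best with its own number, the numbers were not taken as pairs. With a replicate block the HC against LC count was 3, with SLC9A2 (limma, adjusted p = 0.0471) and SLC9A8 (adjusted p = 0.0411) added to SLC4A4.

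Signs changed as follows (log2). SLC26A3, HC minus LC, was -0.098 under quantile normalization, -0.093 rescaled, -0.099 with the covariate, -0.13 with LC replicate 3 alone and -0.32 to 0.52 leaving out 1 library, and HC minus MC -0.65 to 0.19. SLC4A2, HC minus LC, was -0.040 with the covariate and -0.059 with LC replicate 3 alone. Its MC minus LC was 0.13 with the covariate and -0.33 to 0.22 leaving out 1 library, and its HC minus MC -0.17 and -0.015 to 0.53. SLC4A4, HC minus MC, was 0.011 under median-of-ratios, 0.13 under quantile, 0.026 with the covariate and -0.089 to 0.016 leaving out 1 library. SLC4A7, HC minus LC, was 0.15 under quantile, 0.017 with the covariate, 0.029 with LC replicate 3 alone and -0.26 to 0.093 leaving out 1 library, and HC minus MC -0.0072 with weights. SLC9A3, MC minus LC, was -0.0077 under quantile, -0.078 with weights and -0.15 to 0.17 leaving out 1 library. SLC9A8, HC minus MC, was 0.031 under median-of-ratios, 0.072 under quantile and -0.13 to 0.023 leaving out 1 library. The cause was not tested.

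Of 28 named calls in the pathway lists, 10 were lost in at least 1 alternative and none changed sign. Lost with LC replicate 3 alone were SGK1, ATP6V0D1, ATP6V1A, CA12 (MC minus LC), and CLCN2 and ATP1B1 (HC minus LC). Lost with the covariate were LRRC8E, TCIRG1, CA12 (HC minus MC), and CLCN2 and ATP1B1 (HC minus LC). SGK1 and ATP1B1 (HC minus LC) were lost after rescaling. The counts per list moved by more than 1.5 times in 77 of 330 recomputations. Genes called over all genes in HC against LC (2939) numbered 5889 with quality weights, 1404 at a threshold of 0.01, 1753 without HC replicate 3 and 1287 with LC replicate 3 alone. In MC against LC (3894) they numbered 2261 at a threshold of 0.01 and 2191 with LC replicate 3 alone. In HC against MC (2917) they numbered 6590 with weights, 1246 at a threshold of 0.01, 981 with the covariate and 1596 to 1789 without HC replicate 2, HC replicate 3, MC replicate 1 or MC replicate 2. For the F test (5274) they numbered 8711 with weights and 2925 at a threshold of 0.01. Rescaling to one sum moved the median of all genes to -0.22 in HC minus LC and -0.25 in HC minus MC. Depth is unknown, which limits SLC4A4, SLC4A7 and SLC26A6 most, since they lie near 1 FPKM.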
